A study of Mus musculus with 6 samples.

Results

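The early growth response (EGR) genes encode zinc finger transcription factors that bind GC-rich DNA. The 4 EGR genes were chosen here by gene name, with earlier results of these data known. Of these, 3 have a row among the 637 genes of the authors' deposited table, namely Egr1, Egr2 and Egr4. Egr3 has no row there and was not analysed here. The table comes from a sequencing study of RNA from the hippocampus of 56-day-old wild-type C57BL/6 mice. Focal occlusion of the middle cerebral artery (MCAO), which blocks a large artery feeding the forebrain and models stroke, made the ischemia group, and a sham operation without occlusion the control group. Both groups hold 3 samples, and both are titled 2 h, without saying whether that is the length of the occlusion or the time after surgery. No label says that the samples of a group are separate animals, so the p-values reflect differences among samples that may be technical. The table gives each gene's mean normalised reads per group, its log2 fold change and its raw and adjusted p-values, without any measure of spread. Its columns M2 and S2 were taken for MCAO and sham by their initials, and all directions depend on this.

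EGR factors are immediate-early genes: their transcription starts within minutes of a stimulus and needs no new protein. In neurons, calcium entry and growth factor signals reach their promoters through the ERK kinase cascade, serum response factor bound with ETS-family partners at CArG boxes, and CREB bound at cAMP response elements. Egr1, also called Zif268, is present at rest in forebrain neurons and is used as a marker of neuronal activity. Egr2, also called Krox20, is known for hindbrain patterning and for peripheral myelination, and Egr4 is found mainly in neurons. NAB proteins bind EGR1 and EGR2 and hold back their activity.

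Promoter windows were matched by symbol for 2 of the 3 genes, Egr2 and Egr4, and not for Egr1. The 2 are shown for CArG boxes and cAMP response elements. Both are the 250 bases before an annotated start in RefSeq (build GRCm38.p6, which is not the build named by the submitters), 5′ to 3′ on the strand of the gene. Egr2 lies at chr10:67537619-67537868 on the plus strand and Egr4 at chr6:85513590-85513839 on the minus strand. Capitals mark CArG boxes, allowing at most 1 central letter other than A or T, and the short form of the cAMP response element, TGACG or its complement CGTCA.
Egr2: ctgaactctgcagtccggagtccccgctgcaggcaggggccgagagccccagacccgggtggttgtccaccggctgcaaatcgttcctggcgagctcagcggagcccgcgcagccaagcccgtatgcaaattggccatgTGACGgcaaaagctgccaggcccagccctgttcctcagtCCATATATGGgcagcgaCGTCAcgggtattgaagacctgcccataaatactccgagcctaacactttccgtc
Egr4: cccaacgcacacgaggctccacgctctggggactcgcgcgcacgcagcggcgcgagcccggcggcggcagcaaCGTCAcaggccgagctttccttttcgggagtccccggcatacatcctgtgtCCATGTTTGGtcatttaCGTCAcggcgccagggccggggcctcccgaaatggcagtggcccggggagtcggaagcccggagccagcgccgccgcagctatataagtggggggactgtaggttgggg
The Egr2 window holds the CArG box CCATATATGG, whose last base is 63 bases before the start, and 2 short elements. Egr2 has 5 windows in the RefSeq table, of which the one printed begins a cluster of 3 starts. The Egr4 window also holds 2 short elements, and its CArG-like site CCATGTTTGG has a G among the central letters. An exact CArG box was found, on either strand, in 1.47% of 32817 such windows of mouse genes. With 1 other central letter allowed the share was 8.60%, and the short element TGACG was in 17.7%. Neither printed window holds the full element TGACGTCA (1.55% of windows) or the EGR site GCGTGGGCG or GCGGGGGCG (3.06%). These are matches of letters only, and no binding was measured.

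All 3 listed EGR genes were higher in ischemia, by 6.51- to 18.1-fold in the authors' deposited table. Among the 28319 genes that the adjusted p-values imply were tested by the authors, 1.47% were called higher at an adjusted p-value of 0.05, against 3 of the 4 EGR genes. The genes were picked for this description with their calls known, so the count describes them and is no independent test. In bulk tissue, a change in the number of expressing cells and a change in RNA per cell cannot be told apart.

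Egr1 drew the most reads of the 3, without regard to transcript length. Its mean was 7827 normalised reads in sham and 50958 in ischemia in the authors' deposited table. That is a 6.51-fold rise, a log2 fold change of 2.70 (adjusted p = 1.32e-17, authors' deposited table). It was the smallest fold of the 3, from the highest sham read count. By size of fold, Egr1 ranked 69 among the 637 genes of the authors' deposited table, and by p-value it ranked 22.

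Egr4 went from 1887 normalised reads in sham to 28505 in ischemia in the authors' deposited table. The rise was 15.1-fold, a log2 fold change of 3.92 (adjusted p = 2.82e-12, authors' deposited table). Its rank by fold was 22 and by p-value 36 among the 637 genes. The p-value of Egr4 is thus the largest of the 3, although its fold is more than that of Egr1.

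Egr2 was the scarcest member and had the largest fold. Its mean was 341 normalised reads in sham against 6172 in ischemia in the authors' deposited table. The rise was 18.1-fold, a log2 fold change of 4.18 (adjusted p = 8.98e-20, authors' deposited table). By fold and by p-value alike it ranked 17 among the 637 genes.

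**Figure D1:**
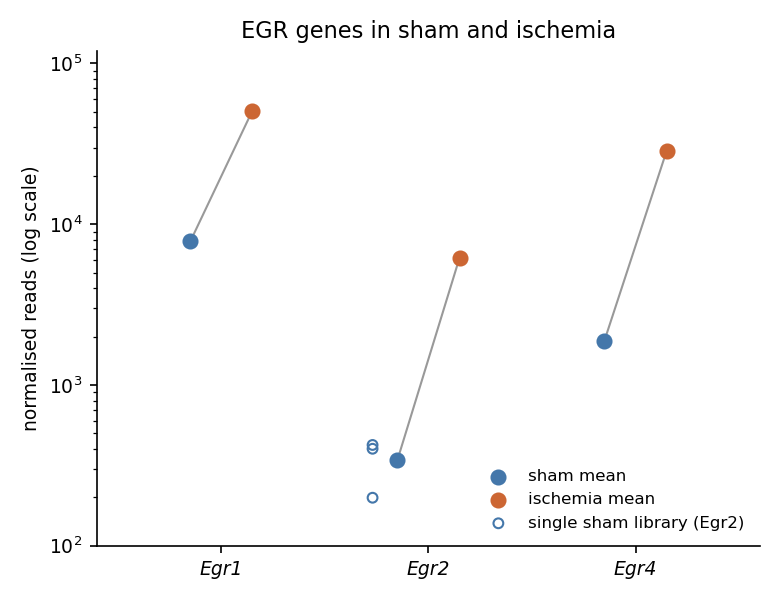
Group means of Egr1, Egr2 and Egr4 in normalised reads on a log axis, for sham and ischemia (filled points), with the 3 single sham libraries of Egr2 recovered from its mean (open points). Each ischemia mean lies above its sham mean, and the Egr2 ischemia mean of 6172 lies far above its highest sham library at 423.

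The sham mean of Egr2 could be separated into its libraries, because a mean of 3 normalised counts is a sum of whole reads times fixed steps. A single combination of reads returned the deposited value, namely 370, 220 and 481 reads in sham libraries A, B and C. After normalisation these are 423, 199 and 401 reads (341 ± 124, SD, n = 3). The letters follow size factor and cannot be tied to the replicate numbers of the labels. Library B was low, and A and C were close to each other. The ischemia mean of Egr2 was 14.6-fold above the highest sham library and 31.1-fold above the lowest. Its log2 fold change was 4.36 without library A, 3.91 without B and 4.31 without C. The means of Egr1 and Egr4, and that of Egr2 in ischemia, exceed 450 normalised reads and could not be separated, so their spread between samples is unknown.

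Egr2 varied more between sham samples than most called genes of similar level. All genes of the deposited table were called by the authors, and a call itself depends on variation. The genes compared here therefore need not stand for uncalled genes of that level. Among 115 sham means of at least 100 and at most 450 normalised reads that had a single solution, the median coefficient of variation was 12.4% (2.31% to 56.5%). For Egr2 it was 36.3%, and 5 of the 115 genes exceeded that. Several other rapid-response factors could be separated in the same way. Klf4, a Kruppel-like factor, stood at 328, 191 and 309 normalised reads in sham libraries A, B and C, so B was again the low one. Ier2, an immediate-early gene, stood at 376, 300 and 365. Atf3, a stress-induced factor, stood at 90.4, 72.3 and 78.3. Both had smaller gaps in the same place. The Atf3 values rest on only 79, 80 and 94 whole reads, and counting variation was not told apart from variation between samples. Maff, a small Maf factor, stood at 128, 131 and 92.5, and the repressor Nfil3 at 444, 438 and 399, and there library C was lowest. Library B was thus lowest for 3 of these 5 factors and for 42 of the 115 genes. The latter count is near an equal share among the 3 libraries.

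**Figure D2:**
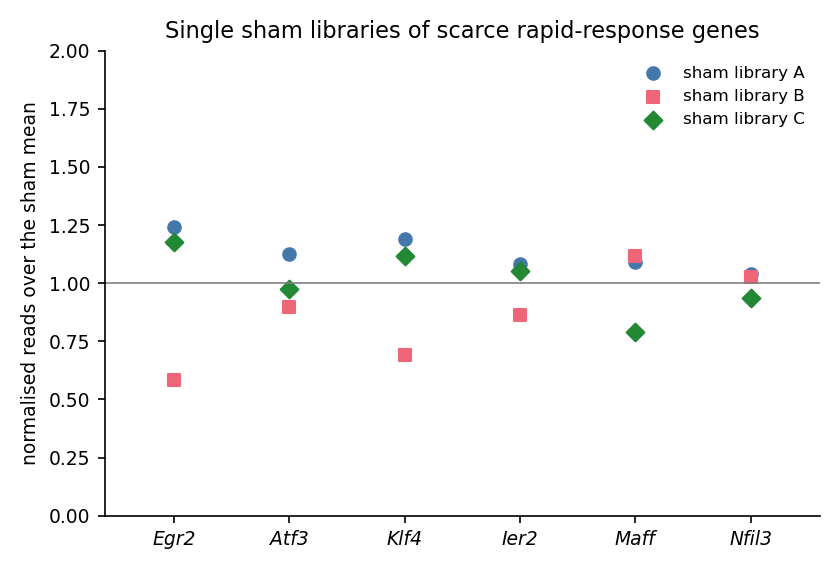
Normalised reads in each sham library divided by the gene's sham mean, for Egr2 and the 5 rapid-response factors whose sham means could be separated. The library B point of Egr2 is the lowest in the plot, at 0.583 of the mean, and that of Klf4 is next, at 0.693.

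The paralogs rose by different amounts. The fold of Egr2 was 2.78 times that of Egr1, a difference of 1.48 on the log2 scale, and the fold of Egr4 was 2.32 times that of Egr1, a difference of 1.21. Egr2 and Egr4 differed by 0.26 on the log2 scale. Leaving out sham libraries one at a time put the log2 fold change of Egr2 between 3.91 and 4.36. Egr4 (3.92) lies just above the lower end of that range, and Egr1 (2.70) lies below the range. The libraries were left out of the Egr2 mean only, because those of Egr4 were not recovered. Whether the order of Egr2 and Egr4 holds without a given library is therefore unknown. No test of the differences between paralogs could be run, since values per sample were not recovered for Egr1 and Egr4.

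Levels of different genes can be set side by side only per length of transcript. Over merged exons in GENCODE M21 (4.48 kb for Egr1, 3.19 kb for Egr2 and 2.15 kb for Egr4), sham levels were 1745 normalised reads per kb for Egr1, 879 for Egr4 and 107 for Egr2. In ischemia they were 13271 for Egr4, 11365 for Egr1 and 1937 for Egr2. Egr2 was thus the lowest in both groups. Egr1 had 1.99 times the level of Egr4 in sham and 0.856 times in ischemia. This last order turns with the transcript model: over the shorter Egr1 transcript of 3.04 kb, Egr1 stood at 16785 normalised reads per kb in ischemia, above Egr4. Which Egr1 transcript the samples held was not analysed here. Summed over the 3 genes and merged exons, EGR transcripts went from 2731 to 26572 normalised reads per kb, 9.73-fold. Egr1 made up 63.9% of that sum in sham and 42.8% in ischemia. The share of Egr4 went from 32.2% to 49.9%, and that of Egr2 from 3.92% to 7.29%. Exons of the 3 genes overlap those of 0 other genes in GENCODE M21.

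**Figure D3:**
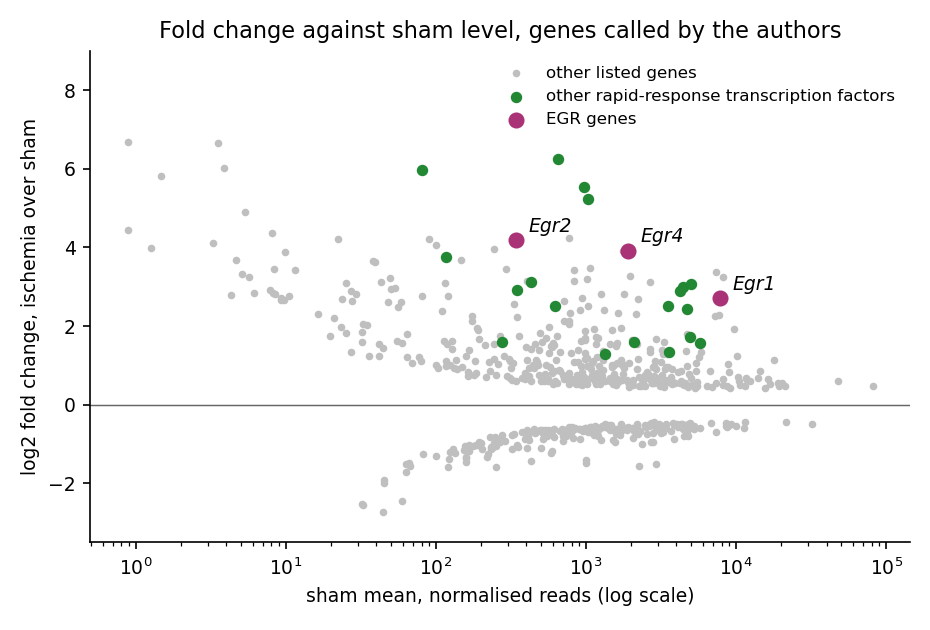
Log2 fold change, ischemia over sham, against the sham mean in normalised reads (log axis) for the genes of the authors' deposited table with a sham mean above 0. EGR genes (large points) lie high among the genes at their sham level, with log2 fold changes of 2.70 for Egr1, 3.92 for Egr4 and 4.18 for Egr2.

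Other rapid-response transcription factors give the scale. Of 27 such factors in a list drawn up with earlier results of these data known, 19 were higher, 0 lower and 8 not listed, with a median of 7.46-fold among the listed ones. Over all 415 higher genes, which are 1.47% of the genes tested, the median was 2.10-fold. Only Npas4 (76.5-fold), Atf3 (62.6-fold), Fosb (46.4-fold) and Fos (37.4-fold) of the 19 had larger folds than Egr2 and Egr4 in the authors' deposited table. Next below Egr4 came Maff at 13.4-fold. Egr1 had a smaller fold than 10 of the 19, among them the AP-1 subunits Junb (8.42-fold) and Fosl2 (7.46-fold) and the orphan nuclear receptor Nr4a1 (8.01-fold) in the authors' deposited table. The other nuclear receptors of that family, Nr4a2 (5.68-fold) and Nr4a3 (5.42-fold), stood below Egr1. In sham, only Junb and Jund of the 19 had more normalised reads per kb of merged exons than Egr1, at 2748 and 2150 against 1745. By contrast, 16 of the 19 had more than Egr2 in sham.

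**Figure D4:**
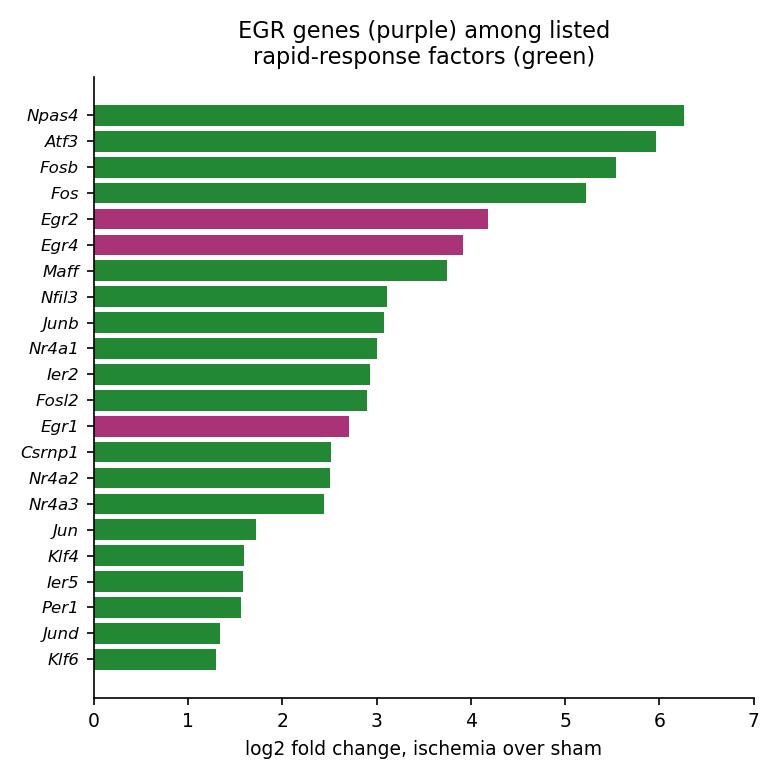
Log2 fold changes, ischemia over sham, of the 3 EGR genes and of the 19 other rapid-response factors in the authors' deposited table. Egr2 (4.18) and Egr4 (3.92) follow Fos (5.23), and Egr1 (2.70) lies between Fosl2 (2.90) and Csrnp1 (2.51).

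The genes nearest to each member in both group means were found by distance on the log2 scale, over 579 other genes with a symbol and a sham mean above 0. With 2 values per gene, closeness describes levels only. Nearest to Egr4 was Nptx2, a secreted neuronal pentraxin, at a distance of 0.15 (1759 normalised reads in sham, 26499 in ischemia, authors' deposited table). The adjusted p-value of Nptx2 was 0.000781 in the authors' deposited table, against 2.82e-12 for Egr4 at nearly the same means. Next came Rgs2, which limits G protein signals, and Errfi1, an inhibitor of growth factor receptors, both at a distance of 0.58 or 0.59, then Fos (0.98) and Bdnf, a neurotrophin (1.02). Nearest to Egr1 were Ranbp2, a nuclear pore protein (0.47), the granin Scg2 (0.55), the G protein regulator Rgs4 (0.56), the synaptic scaffold gene Homer1 (0.59) and Arc, which acts in receptor endocytosis at synapses (0.60). Egr2 had more distant neighbours: Nfil3 (0.81), the potassium channel gene Kcnj2 (0.82), 1700016P03Rik (0.87), the matricellular protein gene Cyr61 (0.97) and the nuclear factor Csrnp1 (1.18). The sham libraries of 1700016P03Rik stood at 284, 163 and 278 normalised reads, with B low as for Egr2, while Kcnj2 stood at 476, 377 and 349.

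Few regulators upstream of the EGR genes were called, with folds of at most 2.47. For scale in this paragraph, 1.47% of all genes tested were called higher and 2.25% were called in either direction. Srf, which encodes serum response factor, was called alone among 7 genes: the authors' deposited table has it at 3396 normalised reads in sham and 6599 in ischemia (1.94-fold, adjusted p = 2.13e-09). Of 8 CREB pathway factors, the authors' deposited table has Crem higher (2.47-fold, adjusted p = 3.32e-11) and the acetyltransferase gene Ep300 lower, 1.48-fold (adjusted p = 0.00480). Crem encodes activators and the repressor ICER, which the gene count does not tell apart. Of 14 ERK feedback inhibitors 5 were called, all higher. Dusp1, a phosphatase of MAP kinases, was 5.27-fold higher, the receptor signalling inhibitor Spry2 3.76-fold, the ERK phosphatase Dusp6 3.02-fold, Dusp5 2.99-fold and Errfi1 8.64-fold, by the authors' deposited table.

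Of the partners that restrain EGR proteins, Nab1 rose by 0.52 on the log2 scale, from 1162 to 1668 normalised reads (adjusted p = 0.0365, authors' deposited table). The other 2 of that list, the corepressor gene Nab2 and the related zinc finger gene Wt1, were not listed, which gives neither a level nor a lack of change. Nab1 had 289 normalised reads per kb in sham and 415 in ischemia. Beside it, Egr1 had 1745 and 11365, and Egr2 had 107 and 1937.

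Genes reported elsewhere as EGR targets were taken as lists from general knowledge, and no EGR binding was measured in these samples. Of 21 reported Egr1 targets in vessels, inflammation and ischemia, 7 were higher and 0 lower, with a median of 12.8-fold against 2.10-fold over all higher genes (Cxcl2, at 0 in sham, counts as above the median). Thbs1, the gene of a matrix protein, was at 147 normalised reads in sham and 1879 in ischemia by the authors' deposited table. The chemokine gene Ccl2 was at 10.3, 8.13 and 15.8 normalised reads in the sham libraries and at 74.1, 186 and 109 in the ischemia libraries. The cytokine gene Il1b was at 8.01, 0.903 and 0.833 in sham and at 59.8, 83.1 and 25.7 in ischemia. Cxcl2, a neutrophil chemokine gene, is listed at 0 in sham and at 31.8 in ischemia in the authors' deposited table, with 28.7, 35.3 and 31.5 in its libraries. The other 14 of the 21 were not listed. Among all genes tested, 1.47% were called higher.

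Of 20 reported EGR targets in neurons, 5 were higher and 0 lower, with a median of 9.44-fold. The share called higher among all genes tested was 1.47%. By the authors' deposited table, Arc rose 9.44-fold (adjusted p = 1.37e-13) from 8162 normalised reads, and Gadd45b, which acts in DNA repair and demethylation, rose 8.87-fold. Nptx2 rose 15.1-fold, Homer1 10.4-fold and Bdnf 6.43-fold in the authors' deposited table. These are themselves activity-induced genes, and their own transcription by the same upstream factors was not tested apart from EGR proteins.

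Egr2 is known for driving myelin and cholesterol synthesis genes in Schwann cells. Of 17 such genes, 8 were higher and 0 lower, but with a median of 1.52-fold, below the 2.10-fold of all higher genes. Sqle, an enzyme of cholesterol synthesis, rose 1.94-fold and the myelin gene Pmp22 1.66-fold, by the authors' deposited table. Of 11 reported targets in lymphocytes and hindbrain, the cytokine signal inhibitor Socs3 (6.77-fold) and the cell cycle inhibitor Cdkn1a (5.01-fold) were higher in the authors' deposited table. Beside both counts, 1.47% of all genes tested were called higher.

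Markers of cell types were checked beside these rises. Of 12 neuron and 7 astrocyte markers, 0 were called by the authors, where 2.25% of all genes tested were called in either direction, a share at which few or no calls would fall among so few genes. Of 12 microglia and blood leukocyte markers the neutrophil genes S100a8 and S100a9 were called, both higher, with summed means of 15.1 normalised reads in sham and 131 in ischemia in the authors' deposited table. Among the oligodendrocyte lineage markers Gpr17, of precursors, was 1.42-fold lower, and of 9 vessel markers Sox18 was lower, in the authors' deposited table. Markers that were not called have no values here, so the labelled tissue could not be checked against them, and the part of cell makeup in the EGR rises was not tested.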

How the data were processed

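RNA of 6 hippocampus samples, 3 ischemia and 3 sham, was sequenced. The submitters' processing notes name Bowtie 0.12.2 and build mm8 without their roles; 612 of 637 gene identifiers carry a BALB/cJ strain prefix. Counting, scaling and testing were not given in the sources used here. In the single deposited table, the authors' read signal is a normalised read count averaged over a group, and the log2 fold change, p-value and adjusted p-value per gene are the authors'. Depth is unknown. With 0 columns per sample, the planned tests of samples (edgeR or limma) were not run.

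The number of genes tested, 28319, is the one whose Benjamini-Hochberg values fit 636 of 637 rows within printed digits. In 1 simulated table of 20000 genes the search gave 19999. Whole reads per library were separated from means of at most 450 by lattice reduction over the 12 lowest means of each group. In sham 191 of 195 means had 1 solution, and in ischemia 146 of 172. Size factors lay between 0.837 and 1.20. In 4 tables simulated on the sham means of 637 genes, all 761 single solutions were correct. Lengths are from GENCODE M21, by symbol, for 564 genes, and promoter sequences from RefSeq.

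Members and lists were chosen with earlier results of these data known. Named are all members, the 5 genes nearest to each by both log2 means, and up to 5 genes per list by p-value; Nr4a2, Nr4a3, Junb, Jund, Fosb, Fosl2, Klf4, Ier2 and the uncalled genes were named after their values or calls were seen, and some genes the rule names are not reported here. Alternatives were pseudocounts, stricter thresholds, a level minimum, other transcript lengths and omission of single libraries. Python 3.11.15, numpy 2.4.6, pandas 2.3.3, sympy 1.14.0 and matplotlib 3.10.9 were used.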

Additional observations from a re-analysis of the deposited data

How the results depend on the processing

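All 3 EGR genes stayed called and higher at adjusted p-values of 0.01 and 0.001, under a Bonferroni correction over 28319 genes, with a log2 fold change of 1 or more in size and with a mean of at least 50. Pseudocounts of 1 and 10 moved no log2 fold change of theirs by as much as 0.05. The log2 ratio of Egr1 to Egr4 in ischemia was -0.22 per kb of merged exons and turned to 0.84 without length and to 0.34 per kb of the shortest transcript, an alternative chosen after the data were seen. The same ratio in sham moved from 0.99 to 2.05 without length. These moves follow from the lengths used. Without single sham libraries the log2 fold change of Egr2 ranged from 3.91 to 4.36. Of the 50 higher genes of the pathway lists, 39 remained at an adjusted p-value of 0.01, 41 at the fold minimum and 49 at the level minimum. No paired analysis was possible because the table holds group means and the recovered libraries carry no replicate numbers.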

Other observations

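Sites of the upstream factors were counted in RefSeq windows of 250 bases before the start, for the called genes found there by symbol, as a description without a test. The full cAMP response element TGACGTCA was in 27 of 275 higher genes (9.82%), in 1 of 151 lower genes (0.662%) and in 1.77% of all 26994 genes. The short element TGACG was in 51.3% of the higher, 23.2% of the lower and 19.8% of all genes. An exact CArG box was in 8 of the 275 higher genes (2.91%) and 1 of the 151 lower genes, against 1.63% of all. The ETS core CCGGAA was in 19.3% of the higher, 15.2% of the lower and 13.6% of all genes. The EGR site GCGTGGGCG or GCGGGGGCG was in 9.82% of the higher and 8.61% of the lower genes, against 3.48% of all genes, so that its share in the lower genes was near that in the higher ones. All genes include noncoding ones, and base composition was not matched.

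Apold1, an endothelial early-response gene, was the gene among the 115 separated sham means whose variation came closest to that of Egr2 with library B low: 344, 203 and 444 normalised reads in libraries A, B and C. Tmem252 varied most and had the opposite order, at 54.9, 181 and 102. These genes were chosen after their values were seen.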
